A study of Mus musculus with 27 samples.

Results

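The genes described here are 26 genes of cholesterol synthesis and its control by SREBP2, taken by symbol from a written list and matched to the 51826 gene identifiers of the mouse liver tables. Of the 26 genes, 21 encode enzymes that lead from acetyl-CoA to cholesterol or branch from that route. The other 5 are the transcription factor gene Srebf2, its partners Scap, Insig1 and Insig2, and the sterol carrier gene Stard4. All 26 were found, and all 26 were among the 16428 genes that passed the filter on low counts. Whole livers of wildtype BALB/c mice, an inbred strain, were profiled by bulk RNA sequencing at 7 stages of a reproductive cycle, 1 library per liver. The mice that bred did so at 10 to 12 weeks of age, litters were brought to an even size, and pups were removed after 10 to 14 days of lactation. The groups were nulliparous mice that had not been pregnant (NUL, 4 livers), mice at day 10 of lactation (LAC, 3), mice 2, 4, 6 and 8 days after weaning (ID2, 3 livers; ID4, 4; ID6, 6; ID8, 3) and mice 4 weeks after weaning (REG, 4). The labels call the days after weaning involution days, a term for the regression of the mammary gland, and describe all animals as age matched. They name no engineered allele and no agent for any group. Each library has a number of its own in its title, and p-values measure the spread between these livers.

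Liver cells make cholesterol from acetyl-CoA by way of mevalonate, farnesyl diphosphate, squalene and lanosterol, and use it for membranes, lipoproteins and bile acids. SREBP2, the product of Srebf2, is made as a precursor in the membrane of the endoplasmic reticulum. When sterol is scarce, SCAP escorts the precursor to the Golgi, where proteases release a fragment that enters the nucleus and switches on genes of the pathway. When sterol is plentiful, the INSIG proteins hold SCAP and the precursor in the endoplasmic reticulum. The fragment binds sterol regulatory elements in promoters, usually beside sites for NF-Y, which reads the letters CCAAT, and Sp1, which reads GC boxes. Srebf2, Insig1 and Stard4 are themselves textbook targets of SREBP2.

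The promoters below show what these letters look like at members that moved with the stages and at Ggps1, which did not pass any test. They come from the RefSeq promoter table on GRCm38.p6, which covers 250 bases before to 50 bases after each start and holds 22 of the 26 members. Capitals mark a sterol element (TCACNCCA, or TCACNCCAC in its longer form) or a CCAAT box on either strand, so that a box on the opposite strand reads ATTGG. Each sequence is written 5′ to 3′ on the strand of its gene. Hmgcs1, Msmo1 and Srebf2 were the 3 members with a sterol element of these letters in the window, and 88 bases around it are given. For Idi1 and Ggps1, the 80 bases before the start are given.
Hmgcs1, chr13:119690194-119690281, plus strand: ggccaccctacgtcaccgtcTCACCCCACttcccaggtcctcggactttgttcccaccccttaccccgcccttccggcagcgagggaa
Msmo1, chr8:64733688-64733775, minus strand: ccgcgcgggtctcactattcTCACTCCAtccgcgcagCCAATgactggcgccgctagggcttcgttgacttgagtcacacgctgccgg
Srebf2, chr15:82147087-82147174, plus strand: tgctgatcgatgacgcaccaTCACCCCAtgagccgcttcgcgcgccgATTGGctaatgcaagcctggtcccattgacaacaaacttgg
Idi1, chr13:8885526-8885605, plus strand: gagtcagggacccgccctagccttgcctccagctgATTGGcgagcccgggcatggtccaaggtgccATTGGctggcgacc
Ggps1, chr13:14063489-14063568, minus strand: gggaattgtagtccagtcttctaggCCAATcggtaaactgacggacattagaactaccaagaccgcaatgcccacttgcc
Searched on both strands, the longer element was in the windows of 1 of the 22 members (4.55%) and of 1.22% of the 27025 genes in the table, and every match to it is also a match to the shorter one. The shorter element was in 3 of 22 (13.6%) against 4.2% of genes, the CCAAT box in 19 of 22 (86.4%) against 37.5%, and the GC box GGGCGG in 19 of 22 (86.4%) against 35.4%. The 27025 genes were not filtered by their counts in liver, whereas all the members passed the filter on low counts. Aacs, Acat2 and Scap were the 3 members without CCAAT in any window. A match is a description of letters and not evidence of binding, and no match says only that these letters are not in the window.

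Counts per library summed to between 41120700 and 75664500. Levels are given as CPM, in which a gene's count is divided by the library total after TMM, edgeR's correction for composition, and levels of different genes are compared only as TPM, which also divides by gene length. Per length, the members spanned a wide range in NUL, from a mean of 3.60 TPM for Ggps1 and 4.33 TPM for Lbr to 249.98 TPM for Fdps and 252 TPM for Insig2. A gene is said to be called, to have risen or to have fallen where edgeR's quasi-likelihood test, adjusted by Benjamini-Hochberg over all 16428 genes, gave p under 0.05. A list of 8 hepatocyte markers, none at 0 throughout a stage, summed to values from 107050 to 131430 CPM in NUL, from 192290 to 238910 in LAC, from 111200 to 119180 in ID4 and from 133480 to 146060 in ID8. Most of each sum was the albumin gene, 1 of the 8, so the hepatocyte sums mainly follow this gene. Albumin held 7.99% to 10.2% of a library's counts in NUL, 15.1% to 18% in LAC, 6.82% to 8% in ID4 and 9.88% to 10.1% in ID8. The 7 markers of Kupffer cells, the macrophages of the liver, summed to between 354 and 457 CPM in NUL, 239.3 and 341 in LAC, 606 and 666 in ID4, 487 and 776 in ID6, and 383 and 483 in REG, and none was at 0 throughout a stage. The 5 erythroid genes summed to between 335 and 712 CPM in NUL, 768 and 1016 in LAC, 53.1 and 264 in ID6, and 19.9 and 35.0 in ID8. A clock score (mean log2 CPM of 10 day-arm clock genes minus that of 5 night-arm genes) overlapped NUL in LAC, ID4, ID6 and REG. It did not in ID2, from -1.52 to 0.47, or in ID8, from -2.26 to -1.16, where NUL ran from -3.71 to -2.28. Whether the score differs with time of day or with stage was not tested. Exocrine pancreas genes reached 1734 CPM in library ID2_31 and 138 CPM in ID4_15, and at most 43.1 CPM in the other libraries. Titles number 7 animals below 200, namely 2 of 3 in ID2, 2 of 4 in ID4 and all 3 in ID8, and the others 200 or above. The labels do not say what the numbers stand for. In bulk tissue, fewer cells of a type and less RNA per cell cannot be told apart.

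Over the cycle most of the pathway was highest in lactation and lowest 4 days after weaning, with a median near the nulliparous level at day 2 and higher medians at each stage after day 4. Of the 26 genes, 24 had their highest stage mean in LAC and 23 their lowest in ID4. Mvk, mevalonate kinase, was lowest in ID6. The median member stood at 169.9% of its NUL mean in LAC, 100.1% in ID2, 37.9% in ID4, 54.4% in ID6, 88.2% in ID8 and 101.3% in REG. Among all genes the median fold change stayed between -0.02 and 0.02 on the log2 scale in each of the 11 comparisons made. A joint test of any difference among the 7 stages called 24 of the 26 members, where it called 27% of all genes tested. The exceptions were Ggps1 (adjusted p = 0.9) and Insig2 (adjusted p = 0.056). The genes differed widely in how far they moved. Between its highest and its lowest stage mean, Sqle changed 33.4-fold, Fdps 19.965-fold, Mvd 17.3-fold and Idi1 16.4-fold, whereas Ebp changed 1.51-fold, Insig2 1.46-fold, Scap 1.33-fold and Ggps1 1.10-fold.

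**Figure D1:**
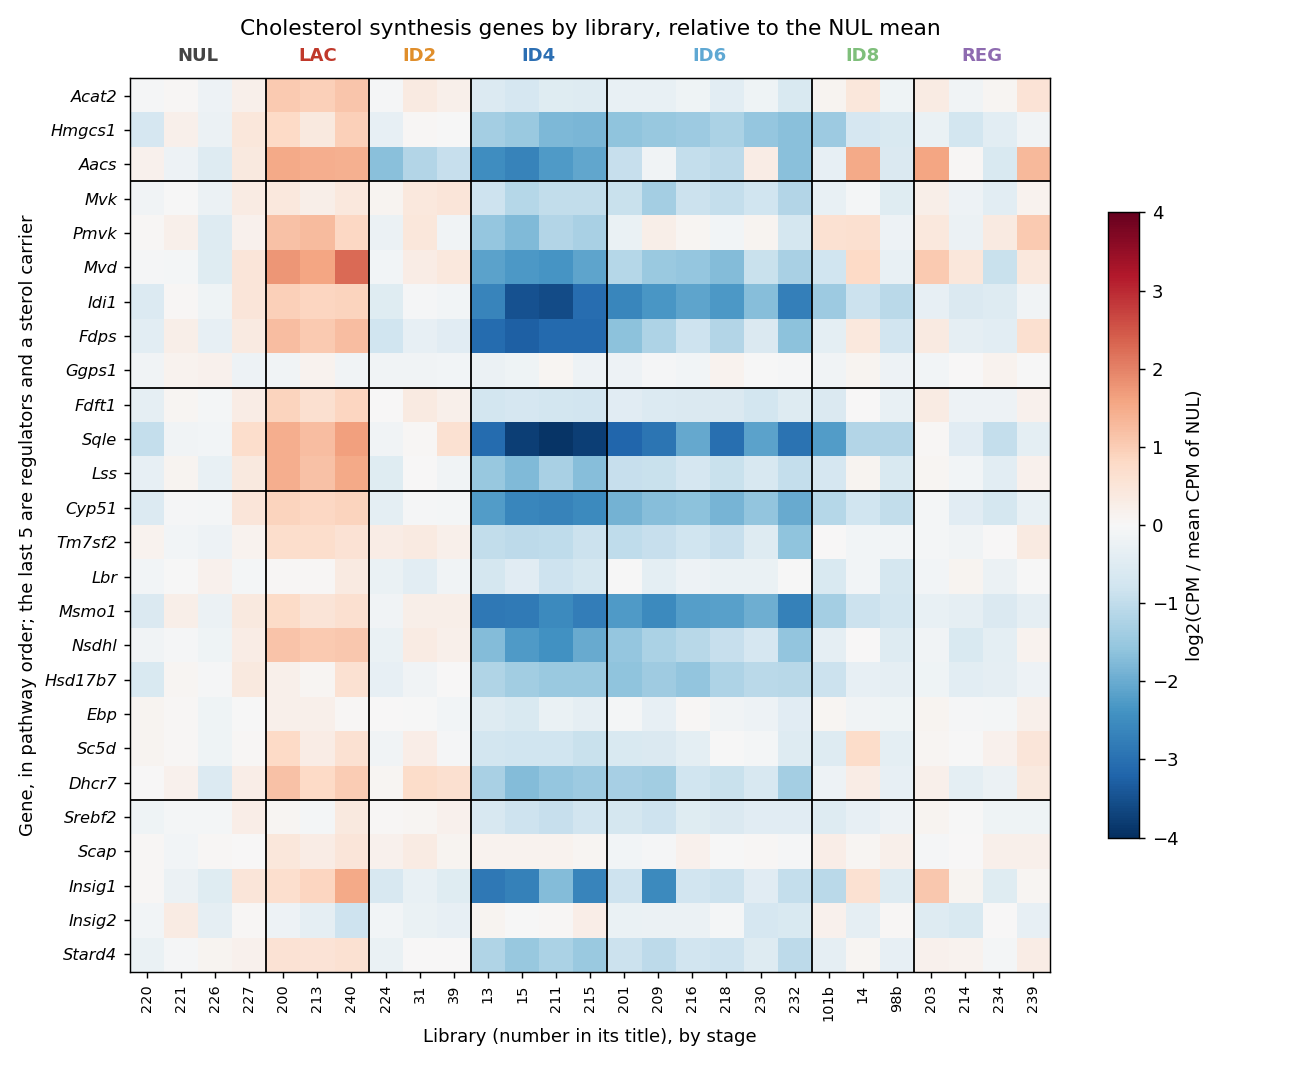
Each cell shows log2 of a library's CPM over the mean CPM of the 4 NUL libraries, for 26 genes in pathway order (rows) and 27 libraries grouped by stage (columns, with the number in the title); the colour scale ends at 4 in either direction. The values ran from -3.93 to 2.25, and the 4 ID4 libraries form the darkest blue block, with Ggps1, Scap and Insig2 near white.

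In lactation genes along the whole route rose, from Acat2 at its start to Dhcr7 at its end. Of the 26 genes 16 rose in LAC against NUL and none fell, where 5.19% of all genes rose and 6% fell, and the median log2 fold change of the members was 0.76 against -0.01 over all genes. Of the 21 enzymes 14 rose. The largest rise was that of Mvd, mevalonate diphosphate decarboxylase, from 25.1 ± 7.07 CPM (SD, n = 4) to 93.2 ± 23.7 CPM (SD, n = 3), followed among called genes by Sqle and Lss. In 18 of the 26 genes every LAC library was above every NUL library, which held for 10.2% of all genes tested. The 10 genes that were not called were Aacs, Mvk, Ggps1, Lbr, Hsd17b7, Ebp, Sc5d, Srebf2, Insig1 and Insig2. For Aacs, acetoacetyl-CoA synthetase, the log2 fold change was 1.47 ± 0.51 (SE; adjusted p = 0.0721), and all 3 LAC libraries, at 177 to 188 CPM, were above the 4 NUL libraries, at 45.9 to 86.6 CPM. Leaving out each library in turn gave 13 to 17 called members. The hepatocyte and erythroid sums were higher in every LAC library than in every NUL library, and the Kupffer sums lower. Also lower were the sums of the endothelial (202 to 231 CPM in LAC, 255 to 294 in NUL), bile duct (21.4 to 27.9, 33.9 to 47.2) and stellate markers (163 to 174, 210.2 to 275), and those of the T and NK, B and exocrine pancreas lists. Their part in the result was not tested.

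By 2 days after weaning most members had fallen from their lactation level. Against LAC, 15 of the 26 genes fell and none rose, where 7.64% of all genes fell. With the number range (below 200 or not) as a covariate 12 were called, without Pmvk (adjusted p = 0.129), Lbr (0.0571) and Insig1 (0.214). Calls over all genes went from 2648 to 1249, and the log2 fold changes of the 15 were 85.8% to 130% of their values without it. Against NUL none of the 26 was called in ID2, where 3.24% of all genes were. The median log2 fold change against NUL was 0.00, and 4 genes, Scap, Dhcr7, Mvk and Aacs, had an unadjusted p under 0.05 in edgeR. DESeq2 also called none. Aacs was at 20.6, 29.1 and 34.8 CPM in the 3 ID2 libraries, all below the 4 NUL libraries, with a fitted difference of -1.23 ± 0.54 on the log2 scale (SE; adjusted p = 0.243). The ID2 libraries of Lbr, at 9.46, 8.65 and 10.4 CPM, were also all below those of NUL, the lowest of which had 10.6 CPM (adjusted p = 0.3). A p above the threshold does not show equal levels: the 95% interval of Dhcr7, the reductase of a last step of the pathway, ran from 0.05 to 0.99 on the log2 scale. Library ID2_224 was the lowest of the 3 ID2 libraries for 18 of the 21 enzymes. Without it 9 genes fell against LAC, and calls over all genes went from 2648 to 1761. ID2_224 is also the 1 ID2 animal numbered 200 or above. In a fit with only such animals the lone ID2 liver is assumed to vary like the other groups. The log2 fold changes of the 15 genes against LAC in that fit were 103% to 139% of those with all animals. The hepatocyte sums of ID2, from 146140 to 161900 CPM, lay above those of NUL and below those of LAC, and the T and NK sums below those of NUL. Against LAC, the endothelial (276 to 293 CPM), bile duct (29.8 to 40.6), stellate (196 to 218.3) and neutrophil sums (2.07 to 2.99, against 1.32 to 1.85) of ID2 were all higher. The clock scores of ID2 lay above those of NUL and of LAC, which ran from -2.96 to -1.56. With the clock score as a covariate 15 members fell and Insig2 rose against LAC, the log2 fold changes of the 15 genes called without it were 73.5% to 166% of their values (median 119%), and the calls over all genes went from 2648 to 1373. Against NUL no member was called in that fit, and calls over all genes went from 532 to 32. The part of the marker sums in the result, and that of the pancreas genes in ID2_31, was not tested.

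At 4 days after weaning 23 of the 26 genes fell against NUL and none rose, where 1.61% of all genes fell. The 3 that were not called were Ggps1, Scap and Insig2. The median log2 fold change was -1.40, against -0.02 over all genes, and 15 of the 26 genes were below 50% of their NUL mean. Sqle, squalene epoxidase, was lowest, at 8.26% of its NUL mean. In each of the 23 genes every ID4 library was below every NUL library, which held for 5.44% of all genes. Against ID2, 21 of the 26 fell and none rose, where 0.84% of all genes fell. Of these 21, Sc5d was not called in any fit with 1 library left out (adjusted p from 0.0662 to 0.237). Ebp was called in such a fit only without ID4_211. Leaving out each library in turn gave 21 to 23 genes that fell against NUL. With only animals numbered 200 or above, 18 fell against NUL, and calls over all genes went from 698 to 182. The log2 fold changes of the 23 genes against NUL were then 75.2% to 117.6% of those with all animals. Against ID2, 16 to 20 fell when each library was left out, and 6 with only animals numbered 200 or above, a fit with 1 ID2 and 2 ID4 livers. The log2 fold changes of the 21 genes in that fit were 62.8% to 99.2% of those with all animals, with a median of 87.5%, and the calls over all genes went from 244 to 8. With the clock score as a covariate 17 fell against ID2, without Acat2, Ebp, Insig1 and Sc5d, the log2 fold changes of the 21 were 74.0% to 129% of their values without it, and calls over all genes went from 244 to 72. With the number range as a covariate 21 fell against NUL, and calls over all genes went from 698 to 359. Ebp, at -0.36 (adjusted p = 0.0859), and Sc5d (0.0543) were not called in that fit. Every ID4 library had a higher Kupffer sum than every NUL library, while the hepatocyte sums overlapped. Against ID2, the hepatocyte sums of ID4 were all lower and the Kupffer sums all higher, ID2 having 334 to 410.03 CPM. The part of these signals in either result was not tested.

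At day 6 the pathway was still low. Of the 26 genes 16 fell against NUL and none rose, where 0.682% of all genes fell, and in 16 genes every ID6 library was below every NUL library, which held for 1.79% of all genes. The median log2 fold change was -0.88, and 10 genes were below 50% of their NUL mean. Library NUL_227 was the highest NUL library for 15 of the 21 enzymes. Without it 13 genes were called in ID6 against NUL, without Fdft1 (adjusted p = 0.0735), Fdps (0.0935) and Mvd (0.128). Calls over all genes went from 178 to 109. Against ID4, 10 genes rose and none fell, where 3.89% of all genes rose. They were Aacs, Pmvk, Idi1, Fdps, Lss, Cyp51, Lbr, Nsdhl, Insig1 and Stard4. Leaving out each library gave 8 to 11 that rose. Aacs was called in 5 of these 10 fits, with a largest adjusted p of 0.0759, without ID4_13. With the number range as a covariate 8 rose, without Aacs (0.082) and Insig1 (0.107), and calls over all genes went from 1401 to 669. Fdps, farnesyl diphosphate synthase, rose most, from 23.6 ± 1.35 CPM (SD, n = 4) to 95.1 ± 28.1 CPM (SD, n = 6). Hmgcs1 and Mvk had log2 fold changes of 0.09 ± 0.18 and -0.01 ± 0.13 (SE) between these stages and were not called. With only animals numbered 200 or above, 5 genes rose from ID4 to ID6, with log2 fold changes of the 10 genes at 81.0% to 124% of those with all animals, and calls over all genes went from 1401 to 277. The Kupffer sums of ID6 were all above those of NUL and the erythroid sums all below, and from ID4, at 407 to 1027 CPM, the erythroid sums were all lower too. The clock scores of ID6, from -3.50 to -2.85, were all below those of ID4, from -2.50 to -1.43. With that score as a covariate 12 members rose from ID4 to ID6 and Insig2 fell, the log2 fold changes of the 10 genes were 89.0% to 136% of their values without it (median 113%), and the calls over all genes went from 1401 to 1210. The part of the Kupffer and erythroid signals in the ID6 results was not tested.

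By day 8, 3 of the 26 genes were still called lower than NUL, where 0.14% of all genes were lower. They were Idi1, Cyp51 and Msmo1, and 9 genes had an unadjusted p under 0.05. Against ID6, 13 genes rose and none fell, where 2.37% of all genes rose. They were Acat2, Mvk, Mvd, Idi1, Fdps, Sqle, Cyp51, Tm7sf2, Msmo1, Nsdhl, Hsd17b7, Dhcr7 and Stard4. Acat2, whose ID6 and ID8 libraries overlapped, was called in 3 of 9 fits with 1 library left out. Its largest adjusted p was 0.259, without ID8_14. Fdps was not called without ID6_201, ID6_209, ID6_218, ID6_232, ID8_101b or ID8_14, the last giving its largest adjusted p, 0.249. All 3 ID8 animals are numbered below 200 and all NUL and ID6 animals 200 or above, so ID8 shares no number range with either of these groups. With the number range as a covariate, which ID2 and ID4 inform, no member was called in ID8 against NUL or against ID6. Against NUL the log2 fold changes in that fit were -1.46 for Idi1, -1.20 for Cyp51 and -0.99 for Msmo1, where without the covariate they were -1.12, -0.96 and -0.96. Against ID6 those of the 13 genes were 58.6% to 106% of the values without it, with a median of 79.7%. Msmo1 had 1.29 and Tm7sf2 0.92, against 1.33 and 0.87 without the covariate. Over all genes the calls went from 82 to 7 against NUL and from 677 to 6 against ID6. The hepatocyte sums, endothelial sums (299 to 305 CPM) and clock scores of ID8 were all above those of NUL and the erythroid sums all below. Against ID6 the clock scores of ID8 were all higher and the erythroid sums all lower. The part of the marker sums in the result was not tested. Library ID8_14 was the highest of the 3 for 17 of the 21 enzymes, and without it 7 genes rose against ID6 and Lbr fell. With the clock score as a covariate, 5 genes rose against ID6 (Idi1, Tm7sf2, Msmo1, Stard4 and Insig2) and Lbr fell, so that 4 of the 13 were called, while the calls over all genes went from 677 to 553. The log2 fold changes of the 13 were 55.0% to 112% of their values without it (median 81.8%). Against NUL that fit called Cyp51 and Lbr, both lower, and calls over all genes went from 82 to 68. The 3 calls against NUL came to 0 without ID8_101b, to 1 without NUL_221 or without NUL_227, and to 5 without NUL_220. Of the 3, Idi1 and Msmo1 were also not called without ID8_14 (adjusted p = 0.0718 and 0.0611), nor Idi1 without ID8_98b (0.103) or NUL_226 (0.0982).

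At 4 weeks after weaning none of the 26 genes was called against NUL, where 0.0852% of all genes were. The median log2 fold change was 0.02. Cyp51, Msmo1 and Insig2 had an unadjusted p under 0.05 in edgeR, and DESeq2 called no member. Their log2 fold changes were -0.36, -0.39 and -0.35. Against ID8 none was called either, where 0.0487% of all genes were. In that step 9 members had an unadjusted p under 0.05, and DESeq2 again called none. The fitted values of 24 of the 26 genes were higher in REG than in ID8. All 3 ID8 animals are numbered below 200 and no REG animal is. The hepatocyte sums of REG, 96555 to 122960 CPM, were all below those of ID8, 133480 to 146060 CPM. The erythroid sums of REG, 451 to 639 CPM, were all above those of ID8, 19.9 to 35.0 CPM. The part of these signals was not tested. The REG livers varied widely for some enzymes. Aacs had 195, 67.9, 42.9 and 164 CPM in the 4 REG libraries, and its 95% interval against NUL, -0.17 to 1.84 on the log2 scale, spans 0.

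**Figure D2:**
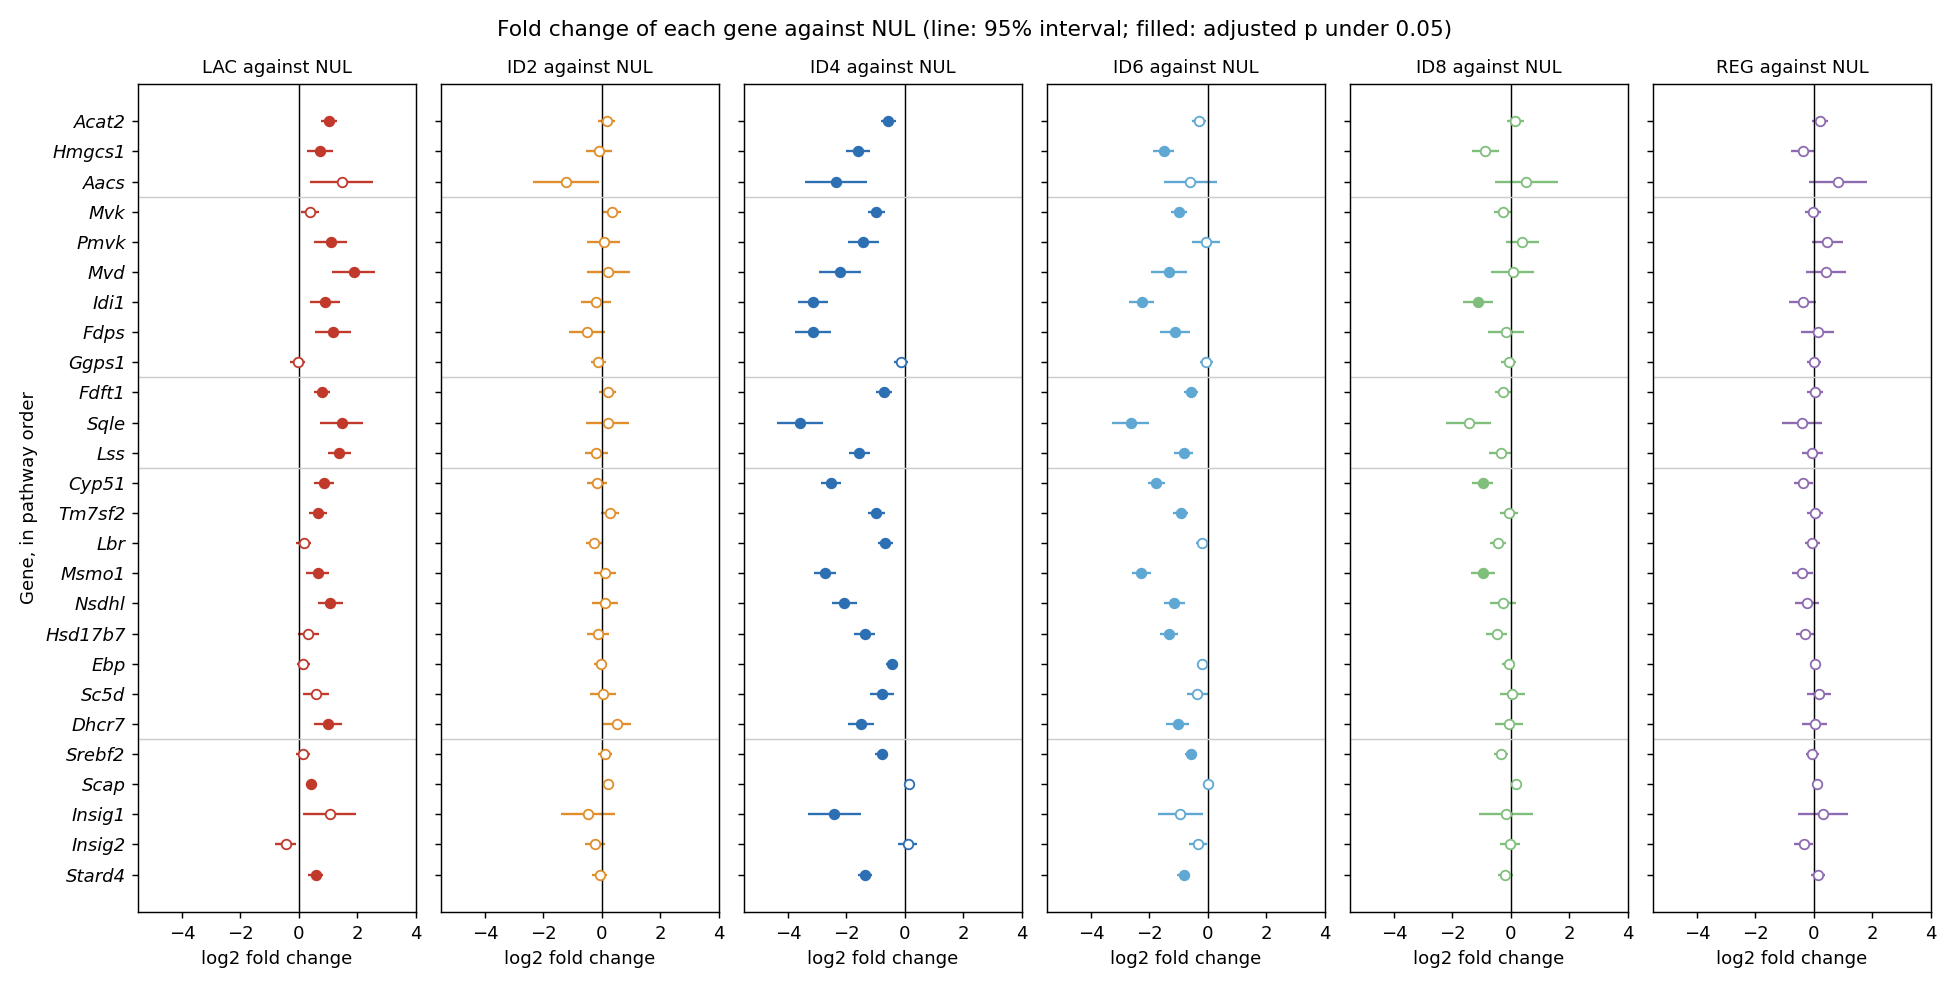
Log2 fold change of each of the 26 genes (vertical axis, pathway order) against NUL in the 6 other stages (panels); points are fitted values, lines 95% intervals, and filled points have an adjusted p under 0.05. Filled points number 16 in LAC, 0 in ID2, 23 in ID4, 16 in ID6, 3 in ID8 and 0 in REG, to the right of 0 in LAC and to the left in the others.

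**Figure D3:**
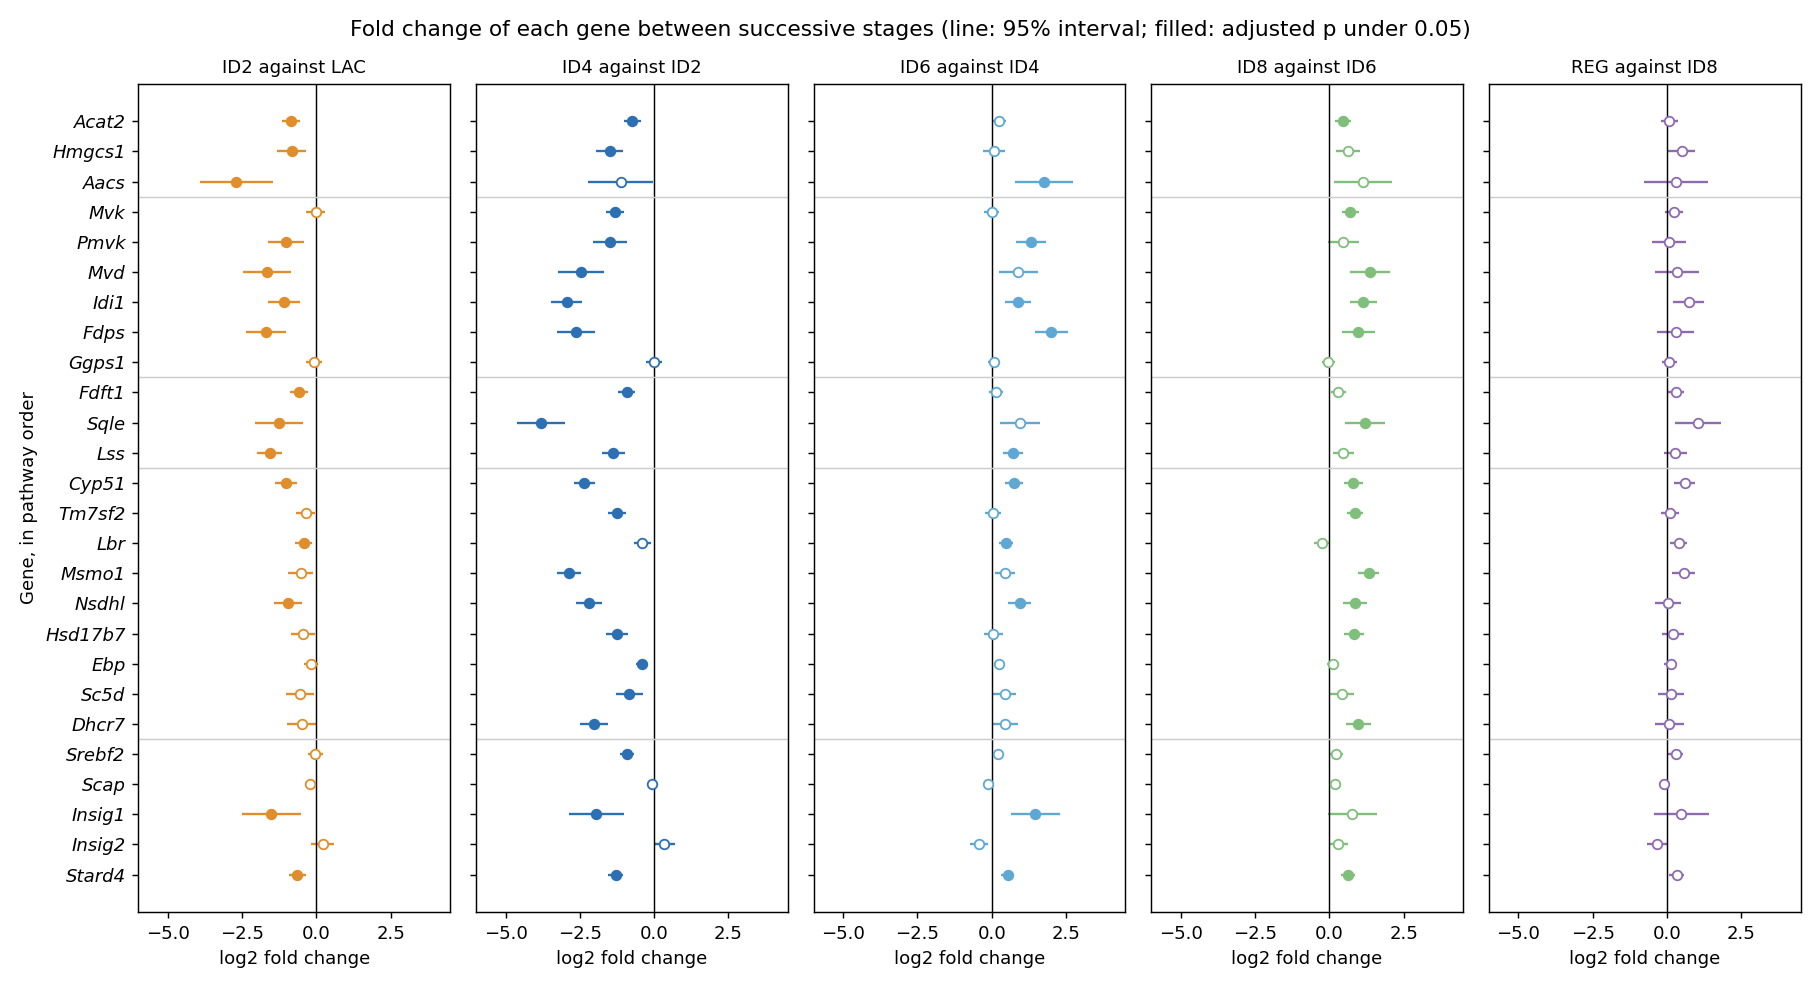
Log2 fold change of each of the 26 genes (vertical axis, pathway order) between successive stages (panels); points, lines and filling as for the comparisons with NUL. Filled points lie left of 0 from LAC to ID2 (15) and from ID2 to ID4 (21) and right of 0 from ID4 to ID6 (10) and from ID6 to ID8 (13), with none filled from ID8 to REG.

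The formation of HMG-CoA involves Acat2, a thiolase that joins acetyl-CoA units, Hmgcs1, the synthase, and Aacs, which activates acetoacetate. In LAC 2 of these 3 genes rose and in ID4 all 3 fell against NUL. Hmgcs1 (ENSMUSG00000093930, chromosome 13, 119690379 to 119708260, plus strand, on GRCm38), whose promoter holds the longer sterol element, had 208, 383, 283 and 453 CPM in NUL and 582, 437 and 641 CPM in LAC. It had 263, 339 and 327 CPM in ID2 and 128, 119, 96.5 and 94.0 CPM in ID4. In ID6 it ran from 104 to 137 CPM with a median of 114. All 10 libraries of ID4 and ID6 were below the lowest NUL library. Levels reached 121, 208 and 216.03 CPM in ID8 and 275, 200.82, 250.2 and 298 CPM in REG, where NUL and REG overlapped. The log2 fold change against NUL was 0.74 ± 0.21 (SE) in LAC (adjusted p = 0.0258), -1.60 ± 0.20 in ID4 (5.28e-05) and -1.51 ± 0.18 in ID6 (3.32e-05). LAC and NUL overlapped for this gene, and its rise in LAC was not called without LAC_200 (adjusted p = 0.0821), LAC_240 (0.121), NUL_220 (0.0745) or NUL_226 (0.0806). Nor was it called with only the compared groups in the fit (0.159) or with no filter on low counts (0.0609). In limma, another test, it was not called on log2(TPM + 1) (0.0605) or on log2(TPM + 0.1) (0.0591).

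Acat2 (ENSMUSG00000023832, chromosome 17, 12942890 to 12960747, minus strand) moved less at day 4. It had 76.045, 82.3, 68.4 and 90.4 CPM in NUL and 165, 153 and 169.6 CPM in LAC, so that every LAC library was above every NUL library by a wide gap. Levels were 76.1, 101.08 and 90.9 CPM in ID2, 54.0, 49.7, 56.2 and 54.9 CPM in ID4 and from 52.2 to 71.1 CPM with a median of 64.4 in ID6. They were 84.9, 109 and 70.0 CPM in ID8 and 99.1, 71.9, 83.3 and 116 CPM in REG. The ID4 libraries lay below all NUL libraries and the ID6 libraries overlapped them. Acat2 rose by 1.03 ± 0.14 (log2, SE) in LAC (adjusted p = 2.55e-05) and fell by 0.56 ± 0.13 in ID4 (0.0121), where the call was lost without NUL_227 (0.0535). Aacs fell by 2.36 ± 0.51 in ID4 against NUL (adjusted p = 0.00958), to between 10.4 and 15.6 CPM. Its levels in ID8 ran from 44.3 to 189 CPM, the high value again in library ID8_14.

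From mevalonate to the isoprenoids, Mvk and Pmvk add phosphates, Mvd removes carbon dioxide, Idi1 interconverts the isopentenyl units and Fdps joins them to farnesyl diphosphate. Ggps1 extends the chain further for protein prenylation and lies on a branch that does not lead to sterols. Of these 6 genes 4 rose in LAC and 5 fell in ID4 against NUL. Idi1 (ENSMUSG00000058258, chromosome 13, 8885501 to 8892451, plus strand) had 87.2, 134, 115 and 178 CPM in NUL and 249.8, 231 and 237 CPM in LAC. In ID2 it had 92.1, 124 and 119.7 CPM. It dropped to 20.6, 11.6, 10.8 and 15.4 CPM in ID4, and in ID6 it ran from 19.2 to 39.1 CPM with a median of 25.8. Every ID4 and ID6 library was below the lowest NUL library. ID8 libraries had 46.5, 70.4 and 60.7 CPM and REG libraries 103, 86.2, 89.5 and 116 CPM, which puts ID8 below NUL without overlap, while REG and NUL overlapped. The log2 fold change against NUL was -3.14 ± 0.25 (SE) in ID4 (adjusted p = 5.78e-08), -2.26 ± 0.21 in ID6 (1.31e-06) and -1.12 ± 0.25 in ID8 (0.046). The rise in LAC, 0.90 ± 0.24 (adjusted p = 0.0174), was not called without LAC_200 (0.0561), NUL_220 (0.0563) or NUL_226 (0.0529). The fall in ID8 was called in 1 of 7 fits with 1 library left out, and its largest adjusted p was 0.24, without ID8_101b.

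Mvk (ENSMUSG00000041939, chromosome 5, 114444269 to 114460591, plus strand) fell between day 2 and day 4. It had 24.6, 27.1, 23.1 and 33.8 CPM in NUL, 36.4, 32.3 and 36.6 CPM in LAC and 29.2, 36.2 and 37.7 CPM in ID2. In ID4 it had 15.4, 12.2, 13.6 and 13.7 CPM, in ID6 it ran from 10.7 to 15.7 CPM with a median of 14.3, and in ID8 it had 21.9, 25.989 and 19.5 CPM. REG libraries had 32.3, 23.8, 20.3 and 30.1 CPM. ID4 and ID6 both lay below all other stages. Mvk was not called in LAC (0.37 ± 0.15, SE; adjusted p = 0.117), fell by 0.98 ± 0.14 in ID4 (0.000123) and by 0.99 ± 0.13 in ID6 (3.46e-05), and rose by 0.71 ± 0.14 from ID6 to ID8 (0.00413). Fdps rose to 471 ± 32.2 CPM (SD, n = 3) in LAC and fell to 23.6 ± 1.35 CPM (SD, n = 4) in ID4 from 208.7 ± 55.2 CPM (SD, n = 4) in NUL. Its log2 fold change in ID4 was -3.15 ± 0.30 (SE; adjusted p = 1.67e-06), with the 4 ID4 libraries between 21.6 and 24.5 CPM. Mvd fell in ID4 to 5.38 ± 0.450 CPM (SD, n = 4), and its fall in ID6 (adjusted p = 0.0282) was called in 3 of 10 fits with 1 library left out, with a largest adjusted p of 0.128, without NUL_227. Pmvk fell in ID4 to 20.6 ± 3.67 CPM (SD, n = 4) and had 52.2 ± 11.2 CPM (SD, n = 6) in ID6, where NUL had 55.0 ± 11.5 CPM (SD, n = 4). Ggps1 stayed between 5.09 and 5.60 CPM in all 7 stage means, and both its promoter and that of Idi1 shown above carry CCAAT letters. Its 95% interval in ID4 against NUL was -0.36 to 0.11 on the log2 scale.

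From farnesyl diphosphate to lanosterol, Fdft1 makes squalene, Sqle oxidises it and Lss closes the sterol rings. All 3 genes rose in LAC and fell in ID4 and in ID6 against NUL. Sqle (ENSMUSG00000022351, chromosome 15, 59315077 to 59331192, plus strand) had the widest swing of the 26 genes. It had 25.9, 45.4, 46.9 and 82.5 CPM in NUL, 139, 119 and 158 CPM in LAC and 45.9, 51.4 and 76.007 CPM in ID2. In ID4 the libraries had 5.94, 3.68, 3.29 and 3.66 CPM, and ID6 ran from 5.60 to 12.0 CPM with a median of 6.48. ID8 libraries had 10.7, 22.4 and 22.1 CPM, and REG libraries 51.9, 36.6, 25.6 and 38.4 CPM. All LAC libraries were above NUL, all libraries of ID4, ID6 and ID8 were below it, and REG overlapped it. The log2 fold change was 1.46 ± 0.35 (SE) in LAC (adjusted p = 0.00947), -3.60 ± 0.37 in ID4 (6.98e-06), -2.64 ± 0.31 in ID6 (4.66e-05) and -1.44 ± 0.37 in ID8, where it was not called (0.0871). The steps from LAC to ID2 (-1.26 ± 0.38; adjusted p = 0.0296) and from ID6 to ID8 (1.21 ± 0.33; 0.0418) were called in 1 of 6 and 2 of 9 fits with 1 library left out. Their largest adjusted p were 0.113, without ID2_224, and 0.168, without ID8_98b.

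Lss (ENSMUSG00000033105, chromosome 10, 76531588 to 76557138, plus strand) had 44.1, 60.6, 45.3 and 72.3 CPM in NUL, 154, 125 and 159 CPM in LAC and 40.1, 56.8 and 50.1 CPM in ID2. It had 19.5, 16.4, 22.5 and 17.2 CPM in ID4, and in ID6 it ran from 28.6 to 35.4 CPM with a median of 30.1. ID8 libraries had 34.8, 59.8 and 36.5 CPM, and REG libraries 58.5, 52.0, 41.1 and 62.1 CPM. LAC lay above and ID4 and ID6 below all NUL libraries, while ID2, ID8 and REG overlapped NUL. Lss rose by 1.39 ± 0.19 (log2, SE) in LAC (adjusted p = 3.66e-05) and fell by 1.55 ± 0.18 in ID4 (1.02e-05). It rose again by 0.73 ± 0.16 from ID4 to ID6 (0.00731). This step was not called in limma, another test, on log2(TPM + 1) (0.54; adjusted p = 0.0852) or on log2(TPM + 0.1) (0.59; 0.0738). Nor was it with only animals numbered 200 or above, where it was 0.67. Fdft1 (ENSMUSG00000021273, chromosome 14, 63145150 to 63179578, minus strand) moved least of the 3. It had 85.0, 117, 104 and 134 CPM in NUL, 202.97, 169.9 and 198 CPM in LAC and 110.5, 141 and 128 CPM in ID2. It had 65.8, 69.5, 66.6 and 65.3 CPM in ID4, ran from 65.8 to 79.6 CPM with a median of 74.5 in ID6, and had 74.1, 112 and 88.8 CPM in ID8 and 138, 95.8, 95.049 and 124 CPM in REG. The ID4 and ID6 libraries lay below NUL. The log2 fold change was 0.79 ± 0.14 (SE) in LAC (adjusted p = 0.00041), -0.72 ± 0.13 in ID4 (0.0012) and -0.57 ± 0.12 in ID6 (0.00927), the last not called without NUL_227 (0.0735). Counts of Fdft1 were not whole in 26 libraries, as were those of Acat2 in 27, Scap in 26, Idi1 and Lbr in 24, Tm7sf2 in 18 and Fdps in 16, so their values depend on how the authors' program divided shared reads.

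**Figure D4:**
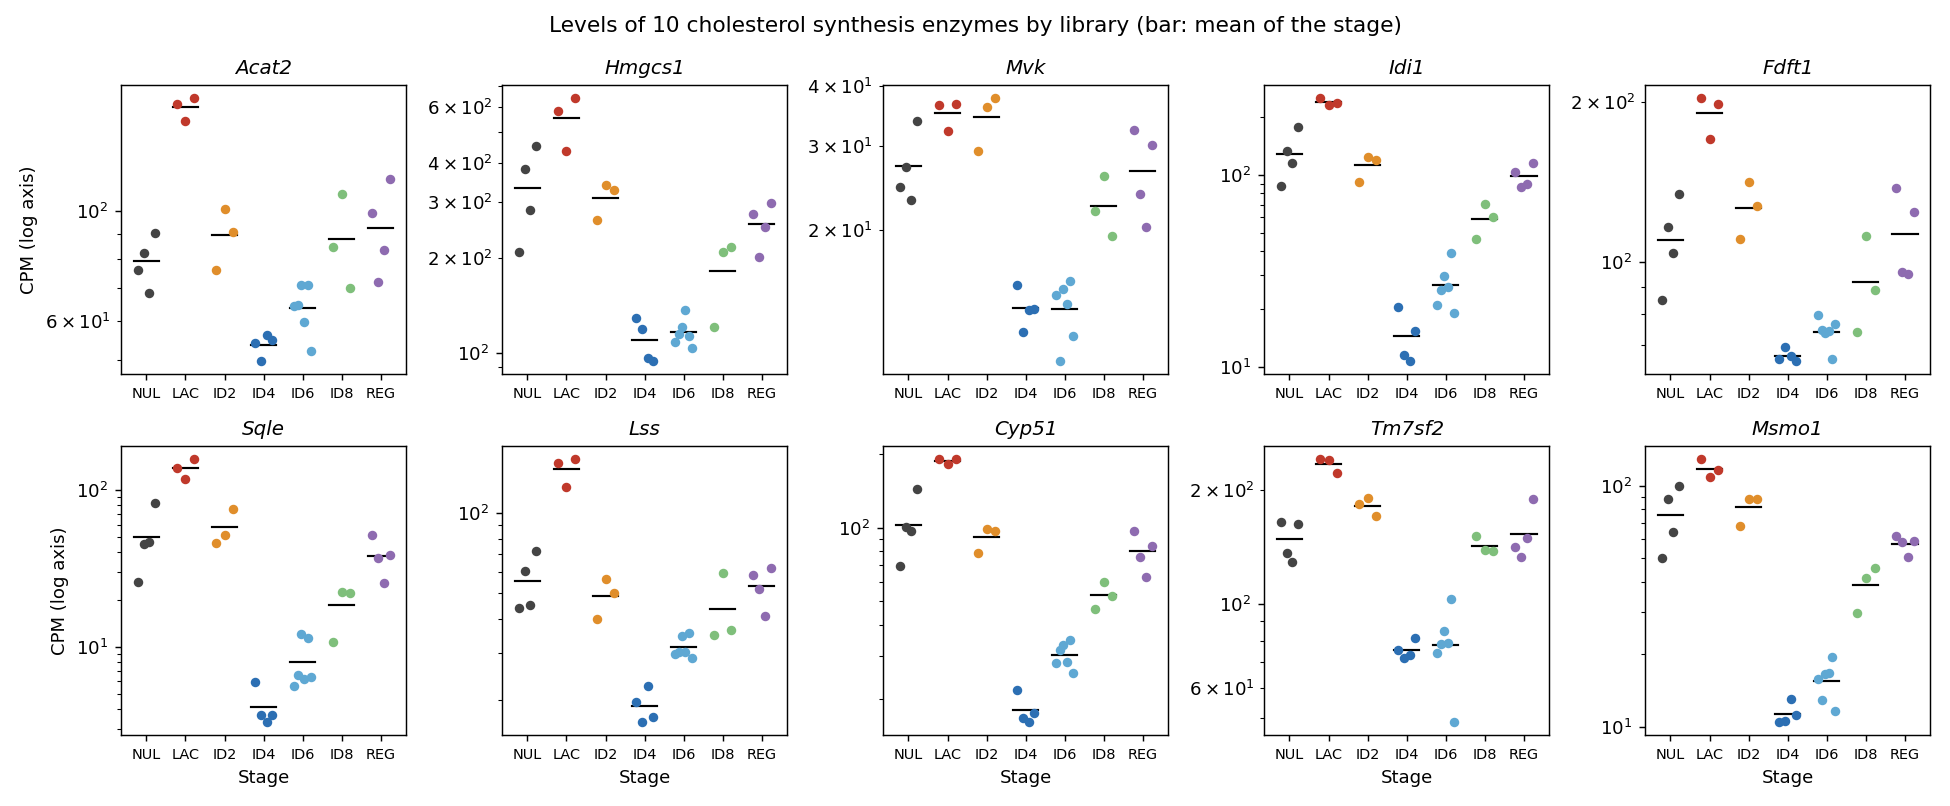
CPM (log axis, own scale in each panel) of 10 enzymes in each of the 27 libraries, by stage (horizontal axis); points are libraries and bars stage means. In every panel the ID4 points lie below all NUL points, and for Sqle they lie between 3.29 and 5.94 CPM while LAC lies between 119 and 158 CPM.

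From lanosterol to cholesterol, 9 of the listed enzymes act: Cyp51 removes a methyl group, Tm7sf2 and Lbr reduce the resulting bond, Msmo1, Nsdhl and Hsd17b7 strip the remaining methyl groups, and Ebp, Sc5d and Dhcr7 shift, add and reduce double bonds of the ring. Of these 9 genes 5 rose in LAC, all 9 fell in ID4 and 6 fell in ID6 against NUL. Cyp51 (ENSMUSG00000001467, chromosome 5, 4081145 to 4104746, minus strand) had the smallest joint p of the 26 (adjusted p = 1.59e-11). It had 69.9, 100.3, 96.7 and 144 CPM in NUL, 190.4, 182 and 191 CPM in LAC and 78.9, 98.9 and 97.3 CPM in ID2. It had 21.7, 16.7, 16.001 and 17.5 CPM in ID4 and ran from 25.6 to 34.7 CPM with a median of 29.9 in ID6. ID8 libraries had 46.5, 59.7 and 52.4 CPM and REG libraries 97.2, 75.5, 62.7 and 84.5 CPM. From ID4 to REG each stage lay higher than the one before, with ID4 below ID6, ID6 below ID8 and ID8 below REG in every library. Against NUL the log2 fold change was -2.52 ± 0.17 (SE) in ID4 (adjusted p = 1.1e-09), -1.77 ± 0.14 in ID6 (3.73e-08), -0.96 ± 0.17 in ID8 (0.0101) and -0.36 ± 0.16 in REG, which was not called (0.628). In LAC the gene rose by 0.87 ± 0.17 (0.00134). The fall in ID8 was not called without ID8_101b (adjusted p = 0.0921).

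Msmo1 (ENSMUSG00000031604, chromosome 8, 64718139 to 64733792, minus strand) had the second smallest joint p (adjusted p = 3.47e-11). It had 50.1, 87.8, 64.0 and 99.6 CPM in NUL, 129, 109 and 116 CPM in LAC and 68.0, 88.4 and 88.2 CPM in ID2. It had 10.4, 10.6, 12.973 and 11.1 CPM in ID4 and ran from 11.6 to 19.4 CPM with a median of 16.1 in ID6. ID8 libraries had 29.6, 41.4 and 45.5 CPM and REG libraries 62.0, 58.7, 50.6 and 58.8 CPM. LAC was above all NUL libraries and ID4, ID6 and ID8 were below them. The log2 fold change was -2.74 ± 0.19 (SE) in ID4 (adjusted p = 2.51e-09), -2.28 ± 0.16 in ID6 (7.78e-09) and -0.96 ± 0.19 in ID8 (0.0239). The rise in LAC was 0.65 ± 0.19 (adjusted p = 0.0249) and was lost without LAC_200 (0.0995), LAC_240 (0.0621), NUL_220 (0.0728) or NUL_226 (0.0806). The fall in ID8 was called in 3 of 7 such fits, with a largest adjusted p of 0.163, without ID8_101b. Tm7sf2 (ENSMUSG00000024799, chromosome 19, 6062821 to 6068373, minus strand) had 165, 136, 129 and 163 CPM in NUL, 241, 239.6 and 222 CPM in LAC and 183, 190.0 and 170.4 CPM in ID2. It had 75.5, 71.9, 73.1 and 81.3 CPM in ID4, ran from 48.7 to 103 CPM with a median of 78.5 in ID6, and had 151, 138 and 138 CPM in ID8 and 142, 133, 149 and 189 CPM in REG. Every ID2 library was still above every NUL library for Tm7sf2, without a call (adjusted p = 0.323), and ID4 and ID6 were both far below. It fell by 0.97 ± 0.14 in ID4 (adjusted p = 0.000119) and rose by 0.87 ± 0.13 from ID6 to ID8 (0.000899).

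Among the other post-lanosterol enzymes, Nsdhl, a sterol dehydrogenase, fell from 47.3 ± 7.54 CPM (SD, n = 4) to 11.2 ± 2.41 CPM (SD, n = 4) in ID4 (log2 fold change -2.08 ± 0.21, SE; adjusted p = 1.82e-06). Dhcr7 fell from 69.2 ± 15.8 CPM (SD, n = 4) to 24.5 ± 3.20 CPM (SD, n = 4), and Hsd17b7, a ketoreductase, from 50.5 ± 13.8 CPM (SD, n = 4) to 19.4 ± 1.83 CPM (SD, n = 4). The smallest falls of the group in ID4 were those of Ebp (-0.44 ± 0.10; adjusted p = 0.00858), the sterol isomerase, Lbr (-0.66 ± 0.12; 0.00161) and Sc5d (-0.79 ± 0.20; 0.0233), a desaturase. The call of Sc5d was the least stable of the 23 in ID4 under leave-one-out fits. It was kept in 1 of 8 fits with 1 library left out, the one without NUL_226, and the adjusted p in the other 7 ran from 0.0524 to 0.0636. Lbr and Tm7sf2 encode enzymes of the same reduction, and differed in level per length. Tm7sf2 had a mean of 157 TPM in NUL and Lbr 4.33 TPM. Lbr was not called in LAC (0.16 ± 0.13; adjusted p = 0.495), and it rose from ID4 to ID6 (0.48 ± 0.11; 0.00972). Lbr also encodes a lamin-binding protein of the nuclear envelope.

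Of the regulators, Srebf2 encodes SREBP2 itself, Scap its escort, and Insig1 and Insig2 the proteins that retain it. Stard4 encodes a carrier that moves cholesterol between membranes. In LAC Scap and Stard4 rose, and in ID4 Srebf2, Insig1 and Stard4 fell against NUL. Srebf2 (ENSMUSG00000022463, chromosome 15, 82147181 to 82205379, plus strand), whose promoter shown above holds the shorter sterol element and a CCAAT box, had 60.9, 65.2, 65.6 and 83.6 CPM in NUL, 72.5, 64.6 and 91.2 CPM in LAC and 70.6, 73.5 and 77.9 CPM in ID2. It had 43.7, 38.4, 36.5 and 40.1 CPM in ID4 and ran from 38.7 to 50.6 CPM with a median of 47.4 in ID6. ID8 libraries had 47.9, 54.7 and 59.6 CPM and REG libraries 74.3, 68.4, 61.5 and 60.7 CPM. The ID4, ID6 and ID8 libraries were below all NUL libraries, and those of LAC overlapped NUL. Srebf2 was not called in LAC (0.14 ± 0.12, SE; adjusted p = 0.494), with a 95% interval of -0.09 to 0.38, and fell by 0.79 ± 0.11 in ID4 (5.28e-05) and by 0.58 ± 0.10 in ID6 (0.00124). Between the highest and the lowest stage mean it changed 1.92-fold, less than 18 of the 21 enzymes. Scap was higher in LAC, at 191 to 219.6 CPM against 143 to 162 CPM in NUL (log2 fold change 0.42 ± 0.08; adjusted p = 0.00141). In ID4 it was at 166 to 173 CPM, slightly above every NUL library and not called (0.395).

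Insig1 (ENSMUSG00000045294, chromosome 5, 28071363 to 28078662, plus strand), the Insig gene that SREBP2 itself switches on, had 387, 315, 268 and 524 CPM in NUL, 593, 673 and 1060.3 CPM in LAC and 239.29, 307 and 267 CPM in ID2. It had 51.3, 57.9, 111 and 59.6 CPM in ID4 and ran from 63.9 to 272 CPM with a median of 208 in ID6. ID8 libraries had 175, 565 and 258 CPM and REG libraries 795, 400.3, 269.6 and 394 CPM. LAC was above and ID4 below every NUL library. The fall in ID4 was -2.41 ± 0.43 (log2, SE; adjusted p = 0.00222), and the LAC value of 1.05 ± 0.44 was not called (0.141). The steps from LAC to ID2 (adjusted p = 0.0375) and from ID2 to ID4 (0.0273) were called in 1 of 6 and 2 of 7 fits with 1 library left out, with largest adjusted p of 0.126, without LAC_240, and 0.112, without ID2_31. The step from ID4 to ID6, 1.47 ± 0.39 (adjusted p = 0.0246), was called in 6 of 10 fits with 1 library left out, with a largest adjusted p of 0.0886, without ID4_13. For Insig2, the stage means lay between 210.52 CPM in LAC and 308 CPM in ID4, so that its highest and lowest stages were those that were lowest and highest in most members, but none of its comparisons was called without a covariate; its log2 fold change was -0.44 ± 0.17 (SE) in LAC (adjusted p = 0.105) and 0.10 ± 0.16 in ID4 (0.787). Per length, the ratio of Insig2 to Insig1 TPM within a library had a median of 1.43 in NUL (range 0.918 to 1.87), 0.595 in LAC (0.307 to 0.648), 1.61 in ID2 (1.4995 to 2.19) and 9.32 in ID4 (3.96 to 9.71). It was 1.90 in ID6 (1.04 to 6.64), 1.74 in ID8 (0.703 to 3.24) and 0.933 in REG (0.388 to 1.89). The ratio was thus above the NUL range in all 4 ID4 libraries and below it in all 3 LAC libraries. These ratios are a description and were not tested.

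Stard4 (ENSMUSG00000024378, chromosome 18, 33199355 to 33213862, minus strand) had the third smallest joint p of the 26 (adjusted p = 1.34e-10). It had 79.4, 91.1, 101.39 and 108 CPM in NUL, 141, 139 and 145 CPM in LAC and 79.7, 96.5 and 96.0 CPM in ID2. It had 40.985, 33.0, 39.8 and 33.8 CPM in ID4 and ran from 45.8 to 66.4 CPM with a median of 53.2 in ID6. ID8 libraries had 74.0, 99.6 and 75.0 CPM and REG libraries 107, 104, 89.3 and 117 CPM. LAC was above and ID4 and ID6 below every NUL library. Stard4 rose by 0.58 ± 0.12 (log2, SE) in LAC (adjusted p = 0.00286) and fell by 1.36 ± 0.12 in ID4 (2.3e-08). It rose by 0.53 ± 0.11 from ID4 to ID6 (0.00292) and by 0.63 ± 0.11 from ID6 to ID8 (0.00281). Without any 1 library, each of its calls in LAC, ID4 and ID6 against NUL held.

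**Figure D5:**
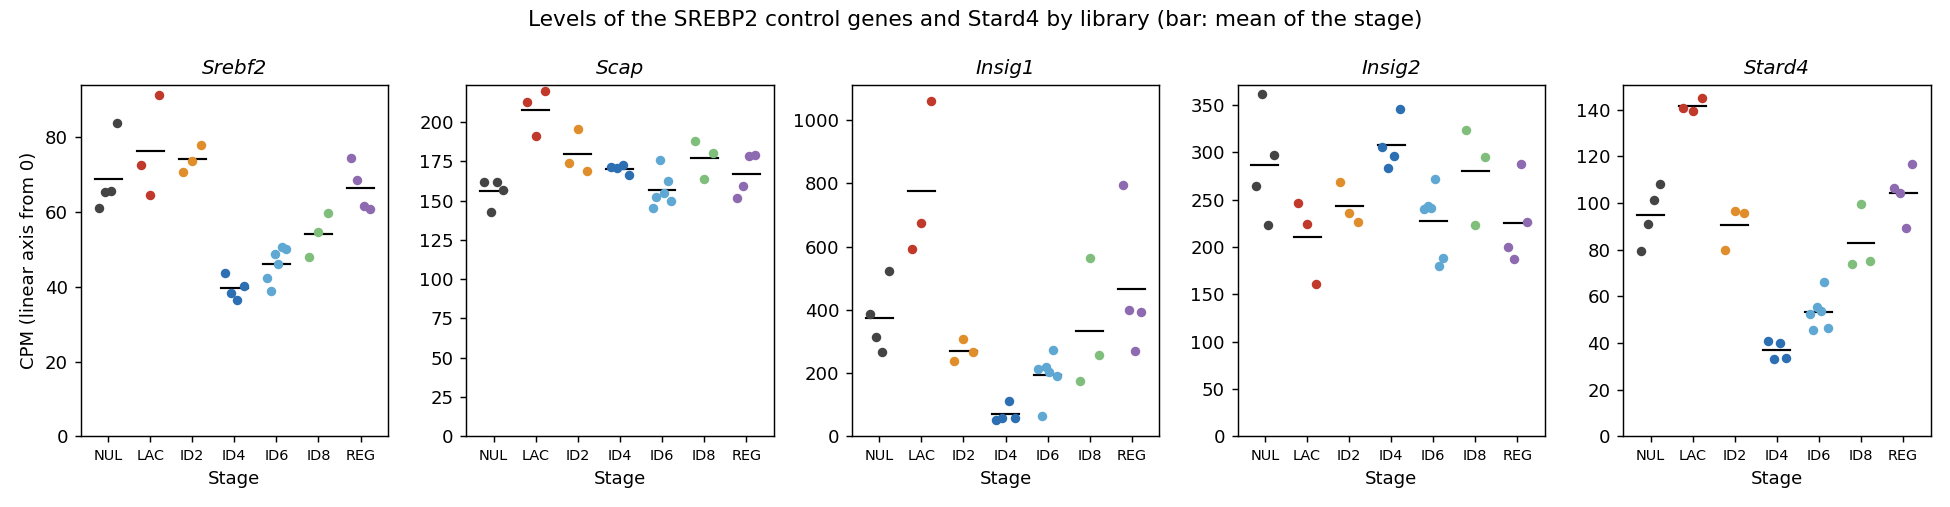
CPM (linear axis from 0, own scale in each panel) of Srebf2, Scap, Insig1, Insig2 and Stard4 in each library, by stage (horizontal axis); points are libraries and bars stage means. In ID4 the points of Srebf2, Insig1 and Stard4 lie below all NUL points, at 36.5 to 43.7, 51.3 to 111 and 33.0 to 40.985 CPM, whereas those of Scap and Insig2 do not.

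A further list held 48 other genes of sterol handling and SREBP biology (esterification, transport, bile acid and oxysterol formation, supply of acetyl-CoA, and ubiquitin ligases of the sterol response), of which 47 were matched and 45 passed the filter on low counts. Npc1l1 and Ch25h did not pass. In LAC 8 of the 45 rose (17.8%, where 5.19% of all genes rose) and 3 fell (6.67%, where 6% fell). In ID4 4 fell against NUL (8.89%, where 1.61% of all genes fell) and none rose. The joint test called 20 of 45 (44.4%, where it called 27% of all genes). The median log2 fold changes of the list were 0.10 in LAC and -0.01 in ID4, and over all genes -0.01 and -0.02. The 6 with the smallest joint p were Tmem97, Rdh11, Erg28, Soat1, Cyp27a1 and Rnf145. Tmem97, an endoplasmic reticulum protein that responds to sterol, had 68.4 ± 6.52 CPM (SD, n = 4) in NUL, 113 ± 7.58 CPM (SD, n = 3) in LAC and 50.4 ± 5.26 CPM (SD, n = 4) in ID4, with a rise in LAC (adjusted p = 4.31e-05) and a fall in ID4 (0.00777). Rdh11, a retinol dehydrogenase, had 59.3 ± 10.9 CPM (SD, n = 4) in NUL, 166 ± 15.1 CPM (SD, n = 3) in LAC and 25.2 ± 0.955 CPM (SD, n = 4) in ID4 (adjusted p = 0.00028 and 0.00197). Both thus rose in LAC and fell in ID4. Erg28, a scaffold of the enzymes that demethylate sterols, was not called in LAC (0.855) and fell in ID4 from 49.5 ± 5.62 CPM (SD, n = 4) to 30.3 ± 1.97 CPM (SD, n = 4) (adjusted p = 0.000227) and in ID6 to 31.9 ± 4.47 CPM (SD, n = 6) (0.000427). Soat1, which esterifies cholesterol for storage, fell in LAC from 4.20 ± 0.471 CPM (SD, n = 4) to 2.50 ± 0.294 CPM (SD, n = 3) (adjusted p = 0.00109). In ID4 it had 5.32 ± 0.308 CPM (SD, n = 4), without a call (0.14). Cyp27a1, a sterol hydroxylase of bile acid synthesis, fell against NUL in ID2 (0.0323) and in ID4 (0.0308), by 0.49 and 0.44 on the log2 scale. Rnf145, a ubiquitin ligase of the sterol response, rose in ID6 by 0.50 (adjusted p = 0.0152).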

How the data were processed

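Bulk RNA from 27 whole mouse livers was measured, 1 library each (Trizol, NEBNext Ultra kit, per the labels' protocols). The deposited tables hold, per gene, the authors' expected counts, which are estimates of reads per gene with reads shared between genes divided, not normalised between libraries, and TPM, the authors' length-scaled value, both per the file headers. The submitters' processing notes name STAR 2.6.1a, RSEM 1.3.1, mm10 and GRCm38, with no role or order. Annotation, trimming and strand are not given in the sources used here, so overlapping and antisense genes are uncertain.

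Symbols and positions came from GENCODE vM21 on GRCm38 by identifier (51633 of 51826; the other 193 hold 0.0147% of counts). Groups came from the titles. No number occurs in 2 groups. No pair of libraries of a group was close to sampling noise (smallest chi-square per gene 42.39). Expected counts, 41120700 to 75664500 per library, were rounded and fitted in R 4.3.3 with edgeR 4.0.16 (filterByExpr by stage, TMM, robust quasi-likelihood fit of all 27 libraries in 7 groups; common dispersion 0.036), which left 16428 genes. The 11 comparisons set each stage beside NUL and beside its predecessor, and a joint test covered all stages. Comparisons were two-sided, and p-values were Benjamini-Hochberg adjusted over all genes, with calls under 0.05. SE came from the fold change and its F statistic, and intervals are 95%. The test was tried on simulated data first.

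The members, lists, tests and the naming rule were chosen with earlier results of these data known. Values per library are given for the 2 or 3 members of each role with the smallest joint p, and of the other sterol genes the 6 with the smallest are named. Values per library of members outside this rule, such as those of Aacs and Lbr, were chosen after they were seen. Alternatives were RLE scaling, no filter, DESeq2 1.42.0, only the compared groups, the title number range (below 200 or not) and the clock score as covariates, limma 3.58.1 on log2(TPM + 1) and log2(TPM + 0.1), and leaving out each library. A fit with only animals numbered 200 or above was added after seeing the data.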

Additional observations from a re-analysis of the deposited data

Results flagged for a closer look

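Within groups of 4 to 10 libraries, a value is given here where the gap between the highest or lowest library and its nearest neighbour took up more of the group's range than Dixon's 95% limit allows. Of 104 groups of member values examined, 3 met this, where chance gives about 1 in 20 groups, or 5.2. All 3 were in ID4. Sqle had 5.94 CPM in ID4_13, against 3.29 to 3.68 CPM in the other 3 libraries. Insig1 had 111 CPM in ID4_211, against 51.3 to 59.6 CPM in the others. Fdps had 21.6 CPM in ID4_15, against 24.1 to 24.5 CPM in the others. Each of these libraries was still below the lowest NUL library for its gene.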

How the results depend on the processing

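The members called in ID8 against NUL numbered 3 and came to 5 with DESeq2, to 0 with only the compared groups in the fit, to 0 with the number range as a covariate, and to between 0 and 5 when each library was left out. In ID8 against ID6, 13 members were called, 0 with the number range as a covariate, 6 with the clock score, 7 on log2(TPM + 1), 7 on log2(TPM + 0.1) and 8 to 13 when each library was left out. The log2 fold changes of the 13 were 58.6% to 106% of the main values with the number range and 55.0% to 112% with the clock score, and over all genes the number range took the calls from 677 to 6. With only animals numbered 200 or above, a setting chosen after seeing the data, ID2 against LAC gave 7 instead of 15, ID4 against ID2 gave 6 instead of 21, and ID6 against ID4 gave 5 instead of 10. Leaving out each library gave 9 to 13 in ID2 against LAC. The counts in LAC, ID4 and ID6 against NUL (16, 23 and 16) stayed within 13 to 18, 18 to 23 and 13 to 16 under all alternatives run. No member was called in ID2 or REG against NUL, or in REG against ID8, under any alternative run.

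Of 117 called member values, none changed direction under an alternative, and of 1968 values recomputed 1732 kept the call and 236 lost it. DESeq2 and RLE scaling kept all 117, and the number range kept 93. The cause of each loss was not tested. No paired analysis was possible because no number in the titles occurs in 2 groups. With 3 livers in LAC, ID2 and ID8, the spread within these stages is poorly measured. All 3 ID8 livers are numbered below 200, so the number range and the stage cannot be told apart there except through ID2 and ID4.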
